A study of Mus musculus with 13 samples.

Results

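Reg1, Reg3a, Reg3b, Reg3g and Reg4, the regenerating islet-derived lectins, were followed across Paneth and stem cell libraries of young and aged mice. They were picked by gene symbol, not by measured value, and all 5 were found in each of the 13 libraries, among 35791 genes in all. Reg2 and Reg3d, the 2 other Reg genes measured, are given for comparison. Every group came from mice labelled male and carrying the Lgr5-eGFP-IRES-CreERT2 reporter on a C57Bl6/SV129 background. The reporter allele drives green fluorescent protein and an inducible Cre from the stem cell gene Lgr5. Paneth cells and stem cells were taken from crypts of the proximal small intestine. Young mice were 2 to 3 months old, with 4 Paneth and 3 stem libraries, and aged mice 20 to 22 months old, with 3 libraries of each cell type. How the cells were sorted is not given in the sources used here. The labels do not say that replicates came from separate mice, so p-values measure the spread between these libraries, which may be technical. The library kit differed by cell type (a Clontech SMARTer pico kit for Paneth cells, a standard Illumina protocol for stem cells), and the effects of both cannot be told apart.

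Reg proteins are small secreted C-type lectins of the gut and pancreas. Reg3g and Reg3b are made by enterocytes and Paneth cells, are induced by microbes through MyD88 and by interleukin 22 through STAT3, and act on bacteria in the mucus. Reg1 was first described in regenerating pancreatic islets and is also made in the crypt, and Reg4 marks secretory cells of the deep crypt, among them Paneth, goblet and enteroendocrine cells.

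Reg3b, Reg3a, Reg1 and Reg3g lie in 1 cluster of 98.0 kb on mouse chromosome 6, together with Reg3d and Reg2, while Reg4 stands alone on chromosome 3 (98222138 to 98236748, GRCm38.p6). Reg3b spans chr6:78370885-78373466, Reg3a chr6:78380709-78383839 and Reg1 chr6:78425983-78428668, all on the plus strand, and Reg3g spans chr6:78466269-78468874 on the minus strand. The 250 bases before the transcription start of these 4 genes are shown because the genes share a cluster but had different levels in aged Paneth libraries. The sequences are from RefSeq on GRCm38.p6, each written 5′ to 3′ on the strand of the gene. Capitals mark the letters TATAAA, TTCNNNGAA (the spaced pair that STAT factors bind) and CACCTG (an E-box, searched for after the sequences had been seen), on both strands, and none of the matches overlap. Reg3b lies at chr6:78370635-78370884 (plus), Reg3g at chr6:78468875-78469124 (minus), Reg3a at chr6:78380459-78380708 (plus) and Reg1 at chr6:78425733-78425982 (plus).
Reg3b: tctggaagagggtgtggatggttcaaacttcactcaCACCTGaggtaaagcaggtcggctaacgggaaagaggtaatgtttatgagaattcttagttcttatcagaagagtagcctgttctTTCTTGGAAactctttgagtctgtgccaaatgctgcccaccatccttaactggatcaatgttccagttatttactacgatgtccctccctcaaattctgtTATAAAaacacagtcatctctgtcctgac
Reg3g: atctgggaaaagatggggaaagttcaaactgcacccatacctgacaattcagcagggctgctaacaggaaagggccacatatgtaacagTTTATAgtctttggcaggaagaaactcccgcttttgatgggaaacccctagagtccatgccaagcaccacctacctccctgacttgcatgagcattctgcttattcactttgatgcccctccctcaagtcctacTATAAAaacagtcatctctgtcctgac
Reg3a: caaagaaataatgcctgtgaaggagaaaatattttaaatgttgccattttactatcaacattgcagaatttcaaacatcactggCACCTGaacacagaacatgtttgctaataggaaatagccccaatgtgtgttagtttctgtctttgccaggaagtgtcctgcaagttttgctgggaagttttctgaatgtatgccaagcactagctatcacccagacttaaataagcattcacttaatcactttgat
Reg1: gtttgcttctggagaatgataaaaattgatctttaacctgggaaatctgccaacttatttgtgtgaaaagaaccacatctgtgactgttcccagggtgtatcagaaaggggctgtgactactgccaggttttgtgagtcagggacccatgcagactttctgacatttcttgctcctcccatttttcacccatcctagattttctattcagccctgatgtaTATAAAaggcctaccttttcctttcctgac
TATAAA began 29 bases before the start in Reg3b, 27 in Reg3g and 30 in Reg1, and Reg3g held a second copy on the other strand at 161 bases. In Reg3a these letters were not in the window. TATAAA was in 12.97% of 27025 promoter windows of the same length. TTCNNNGAA was found in Reg3b, 129 bases before the start, and not in the windows of Reg3g, Reg3a and Reg1, and 7.179% of all windows held it. CACCTG stood in Reg3b and Reg3a, and in 17.1% of all windows. The Reg3b and Reg3g windows were 70.0% identical over their aligned bases (173 of 247), and Reg3a and Reg3g 71.9% over fewer (143 of 199). The Reg4 window, from another chromosome (98221906 to 98222155), ends past the start of the gene span given above. It was 58.8% to 61.5% identical to the 4 windows shown. A match is a description of letters and not a measured binding site.

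The transcripts of Reg3b and Reg3g were 74.7% identical, the second closest pair of the 7 Reg genes after Reg1 and Reg2 (79.7%). Their longest shared run was 35 bases. None of the 50-base windows of the 5 transcripts occurred in a transcript of another gene. Reads of at least that length can therefore be assigned to single members, although the read length is not given in the sources used here and 8 of the 13 Reg4 values and 1 to 4 of those of each other member were not whole numbers.

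Totals ran from 4210439 to 8612228 reads in Paneth libraries and from 8398966 to 19740104 in stem libraries, and the 3 loci with most reads took 26.75% to 66.24% of Paneth reads. Summed Paneth markers (14 genes) lay between 4029 and 86380 CPM (reads scaled to a common library size with TMM factors) in Paneth and between 651.2 and 2393 in stem libraries. Lgr5 was at 74.0 to 120.0 CPM in stem and 14.3 to 44.5 in Paneth libraries. Summed enterocyte markers (20 genes) reached 34060 CPM in young Paneth 4 and 50350 and 42010 in aged Paneth 2 and 3, against 3148 to 12450 in the other 4 Paneth libraries. Those 3 libraries had the fewest summed Paneth markers, and no gene of either list was at 0 in any library. Their part in the Reg levels below was not tested, and values without the 3 libraries are given where they bear on a result. In 12 libraries Xist was at 308 to 3010 CPM and the Y-linked Ddx3y at 0.612 to 3.22, although all mice are labelled male. Young stem 1 had Xist at 13.1 and Ddx3y at 45.6 CPM. In such bulk libraries, fewer cells of a type and less RNA per cell cannot be told apart.

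**Figure D1:**
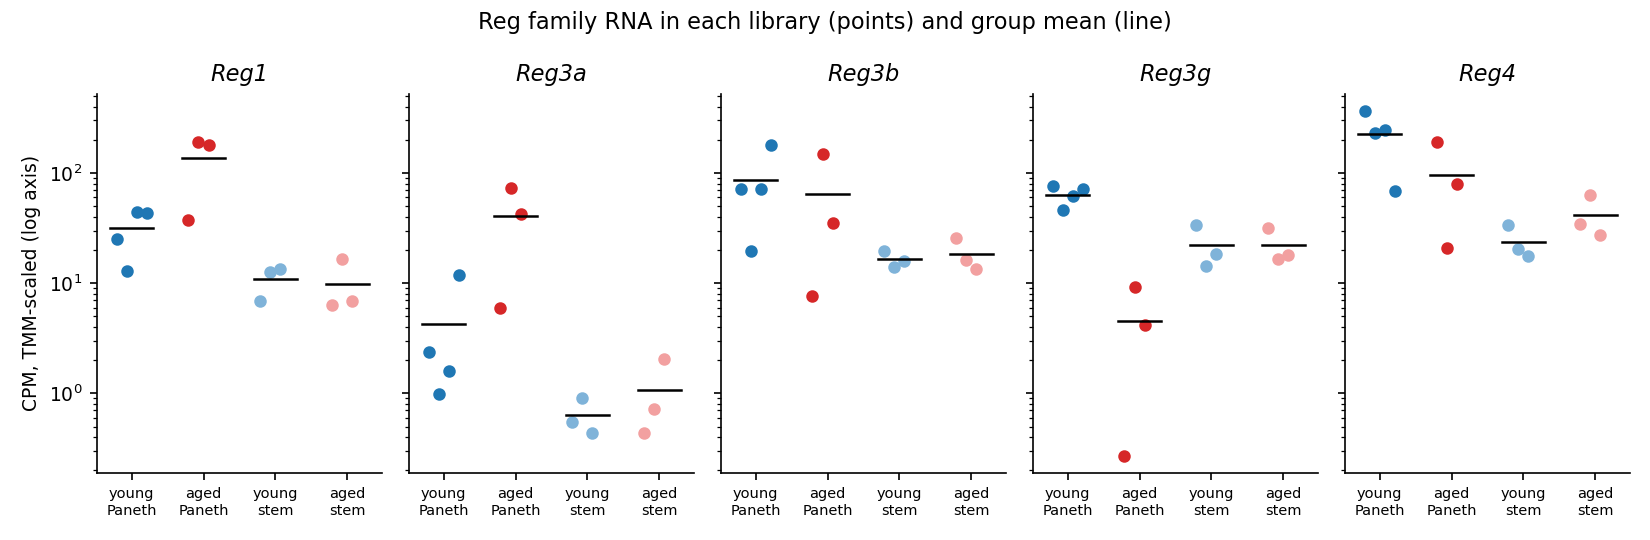
CPM of the 5 Reg genes (log axis) in each library (points) with the group mean (line), for young Paneth (n = 4), aged Paneth (n = 3), young stem (n = 3) and aged stem (n = 3). Reg3g is the member whose aged Paneth points, at 0.273 to 9.29 CPM, all lie under every point of the other groups.

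The 5 genes together gave 310.9 to 540.4 CPM in young Paneth, 241.1 to 444.5 in aged Paneth, 62.4 to 94.25 in young stem and 67.74 to 112.4 in aged stem libraries. Both ages overlapped within each cell type. Within the Paneth sum, the shares of Reg1 and Reg3g did not overlap between the ages. Reg4 held 54.49% ± 25.09 (SD, n = 4) of the members' reads in young Paneth libraries and 35.49% ± 38.45 (SD, n = 3) in aged ones. Reg1 held 7.716% ± 3.884 (SD, n = 4) and 37.16% ± 19.28 (SD, n = 3), every aged share being above every young one. This does not hold for its level: aged Paneth 1, at a share of 15.63%, had 37.68 CPM, within the young range of 12.79 to 44.55. Reg3a went from 0.3165% to 3.176% of the members' reads in young libraries to 2.492% to 16.57% in aged ones, which overlap. Reg3g held 13.98% to 18.97% in young and 0.1133% to 2.091% in aged Paneth libraries, with no overlap. These shares do not depend on how libraries are scaled to each other, and no test was made on them. They have no counterpart over all genes. On levels, 7.88% of all genes tested did not overlap between young and aged Paneth libraries.

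**Figure D2:**
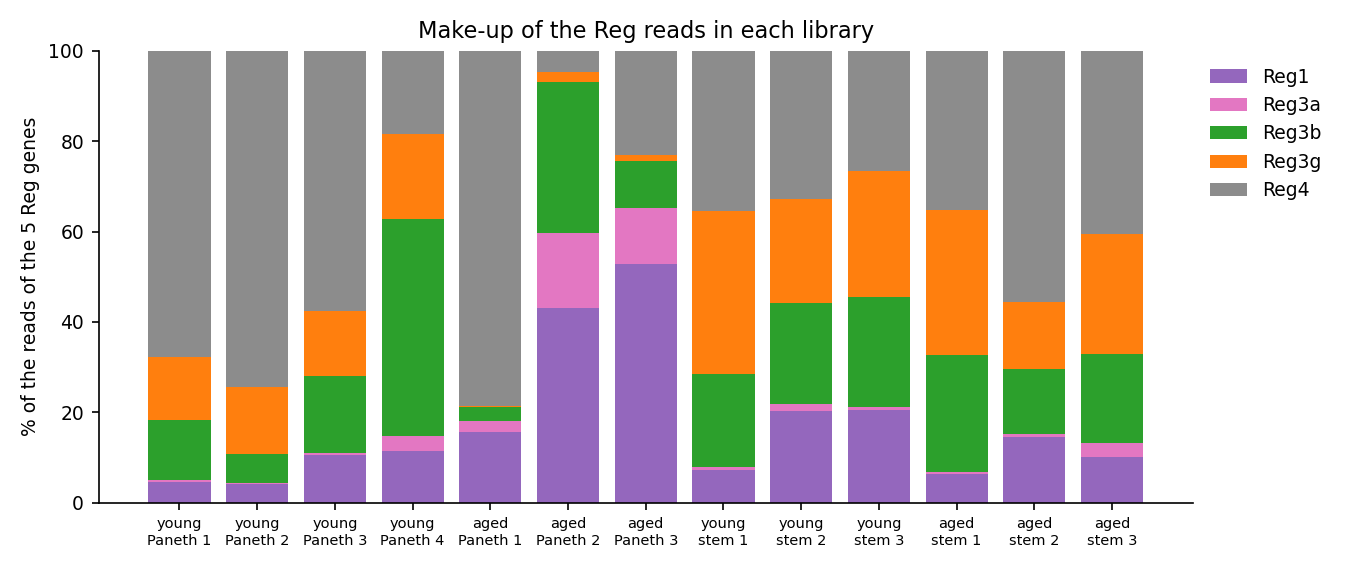
Share of the reads of the 5 Reg genes (percent, bars stacked to 100) held by each gene in each of the 13 libraries. The Reg3g share is 0.1133% to 2.091% in the 3 aged Paneth libraries and 13.98% or more in the other 10.

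Per kilobase of transcript (CPM per kb, the scale on which different genes can be compared), the order in young Paneth libraries was Reg4 at 222.6 ± 119.5 (SD, n = 4), Reg3b at 109.5 ± 86.25, Reg3g at 82.44 ± 16.9, Reg1 at 40.91 ± 19.93 and Reg3a at 5.114 ± 6.268. Reg3a, at most 14.46, lay under the lowest library of each other member, and Reg3g lay wholly above Reg1. The other neighbours overlapped. In aged Paneth libraries the order was Reg1 (177.1 ± 111.2, n = 3), Reg4 (94.42 ± 83.87), Reg3b (81.69 ± 95.84), Reg3a (49.34 ± 41.04) and Reg3g (5.929 ± 5.867), with every neighbour overlapping. In stem libraries of either age Reg3g, Reg4 and Reg3b overlapped near the top, with means of up to 40.71 CPM per kb, and Reg3a was lowest, at no more than 2.508.

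The first question was how each gene differed between aged and young Paneth libraries. Reg3g was far lower in the aged ones. Its level was 75.56, 46.24, 61.15 and 71.28 CPM in young Paneth 1 to 4 and 0.2731, 9.293 and 4.15 CPM in aged Paneth 1 to 3. All 3 aged libraries were below all 4 young ones. Aged Paneth 1 held 1 Reg3g read (95% Poisson interval 0.0253 to 5.57 reads, counting error only) and the other aged libraries 54 and 35, against 94 to 446 in the young. The log2 change, aged minus young, was -3.75 ± 0.69 (SE), a 13.5-fold lower level. It did not pass at an adjusted p of 0.232 (edgeR quasi-likelihood test, Benjamini-Hochberg over 14106 genes, unadjusted p = 0.000296, rank 18 of those genes). None of the 5 members passed, beside 0.0142% of all genes tested (2 genes, with 1189 at an unadjusted p under 0.05). DESeq2 called 3 members and 114 genes, and limma-voom 3 members and 1599 genes. Over all genes tested, 7.88% did not overlap between the ages and 3.73% were lower in every aged than in every young Paneth library. Reg3g was the 1 member among both.

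The Reg3g call depended on the model. It passed with DESeq2 (adjusted p = 7.1e-06), with limma-voom (0.00552), with all 13 libraries in 1 edgeR fit (0.0171) and without aged Paneth 1 (log2 change -3.27, adjusted p = 0.0397). Over 18 alternatives the log2 change lay between -7.62 and -3.14, always lower in aged libraries. Without the 3 libraries of most enterocyte RNA it was -7.62 ± 0.74, from 1 aged library, with 1 Reg3g read, assumed to vary like the young ones. With the marker level as a covariate it was -4.86 ± 0.71 (adjusted p = 0.0605).

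Reg3a, the member with fewest reads in young Paneth libraries, was at 2.372, 0.9839, 1.591 and 11.93 CPM in them and at 6.007, 73.65 and 42.45 CPM in aged Paneth 1 to 3. Aged Paneth 2 and 3 were above all young ones, and aged Paneth 1 lay between young Paneth 1 and 4. The log2 change was 3.26 ± 0.89 (SE), a 9.56-fold higher level that did not pass (adjusted p = 0.522, edgeR). The aged libraries with most Reg3a were aged Paneth 2 and 3, and the young one was young Paneth 4, the 3 libraries with the most enterocyte RNA. With the marker level of enterocytes minus that of Paneth cells added as a covariate, the log2 change of Reg3a was 0.67 ± 0.42. Without those 3 libraries it was 1.82 ± 0.89. All 14 Paneth markers in that covariate were lower and all 20 enterocyte markers higher in aged than in young Paneth libraries. In every fit with it, age and marker level cannot be fully told apart.

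Reg1 also had its highest levels in aged Paneth 2 and 3. Its level was 25.07, 12.79, 44.55 and 43.44 CPM in young Paneth 1 to 4 and 37.68, 191.4 and 179.5 CPM in aged Paneth 1 to 3. Aged Paneth 1 fell within the young range and the other 2 aged libraries lay above it. The log2 change was 2.10 ± 0.56 (SE; adjusted p = 0.505, edgeR) and did not pass. It was 0.59 ± 0.6 with the marker level as a covariate and 0.48 ± 0.56 without the 3 libraries. With DESeq2, Reg3a and Reg1 passed at adjusted p of 0.0378 and 0.0496.

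Reg3b, the closest relative of Reg3g by transcript, had a wide spread in Paneth libraries of either age. It was at 71.15, 19.68, 72.06 and 180.2 CPM in young Paneth 1 to 4 and at 7.646, 149.2 and 35.1 CPM in aged Paneth 1 to 3. The groups overlapped, and the highest aged library was 19.5 times the lowest. The log2 change was -0.43 ± 0.87 (SE; adjusted p = 0.891, edgeR), and its sign turned with library totals as the scaling (0.19) and without young Paneth 4 (0.23) or aged Paneth 1 (0.08). Without aged Paneth 2 it was -1.99 ± 0.83 (adjusted p = 0.999, edgeR). With the marker level as a covariate it was -3.3 ± 0.77 (adjusted p = 0.268). Without the 3 libraries of most enterocyte RNA, which left 1 aged library, it was -2.79.

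Reg4, the gene of secretory cells, was at 366.3, 231.2, 242.8 and 68.83 CPM in young Paneth 1 to 4 and at 189.5, 20.99 and 78.73 CPM in aged Paneth 1 to 3. The groups overlapped, because young Paneth 4 lay under 2 of the aged libraries. The log2 change of -1.21 ± 0.71 (SE; adjusted p = 0.648, edgeR) did not pass. It was 0.43 ± 0.45 with the marker level as a covariate and -0.53 ± 0.36 without the 3 libraries. The 3 libraries with the most enterocyte RNA were the 3 lowest in Reg4.

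**Figure D3:**
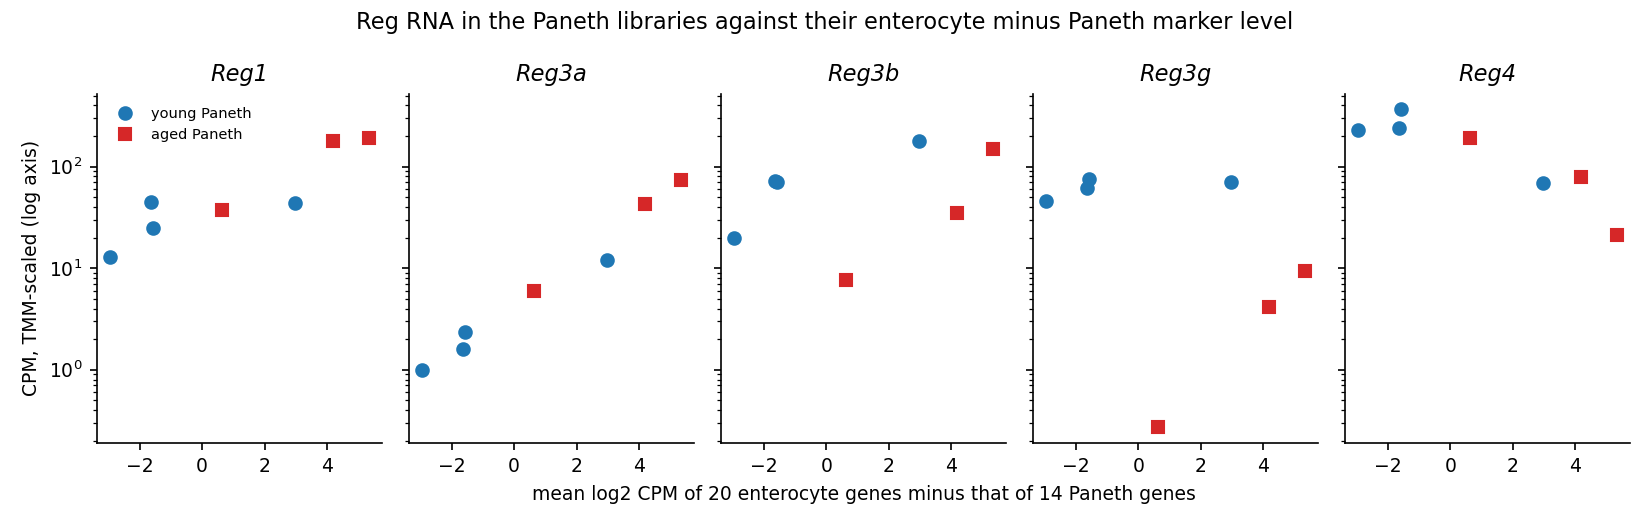
CPM of each Reg gene (log axis) in the 4 young (circles) and 3 aged (squares) Paneth libraries against the mean log2 CPM of 20 enterocyte genes minus that of 14 Paneth genes. Reg3a is higher and Reg4 lower in the libraries at 2.96, 4.19 and 5.34, whereas Reg3g in young Paneth 4 (at 2.96) is 71.28 CPM, within the range of the other young libraries.

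That marker level was -1.57, -2.95, -1.64 and 2.96 in young Paneth 1 to 4 and 0.63, 5.34 and 4.19 in aged Paneth 1 to 3. Young Paneth 4 and aged Paneth 2 and 3 form the high side, and aged Paneth 1 lies between the 2 sides. For Reg3g, young Paneth 4 on the high side was within the range of the other young libraries. Among the 3 aged libraries, Reg3g was higher where the marker level was higher, and aged Paneth 1 had the least of both. Whether marker level and Reg3g go together within an age was not tested.

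Reads of 1 member per read of another in the same library need no scaling between libraries. Reg3g gave 1.06, 2.35, 0.849 and 0.396 reads per Reg3b read in young Paneth 1 to 4 and 0.0357, 0.0623 and 0.118 in aged Paneth 1 to 3. In stem libraries this ratio lay between 1.02 and 1.75, so the 3 aged Paneth libraries were below all 10 others. Reg3a gave 0.0333, 0.05, 0.0221 and 0.0662 reads per Reg3b read in young and 0.786, 0.494 and 1.21 in aged Paneth libraries, above the 0.0173 to 0.155 of stem libraries. Reg1 gave 0.241 to 0.65 in young Paneth, 1.28 to 5.11 in aged Paneth and 0.251 to 1.01 in stem libraries. For these 3 genes, neighbours of Reg3b in the cluster, aged Paneth libraries overlapped no other group. Of 16959 genes set against Reg3b in this way, 0.89% were higher and 0.0708% lower in all aged Paneth libraries than in all others. Reg4 ranged from 0.382 to 11.8 in young and from 0.141 to 24.8 in aged Paneth libraries, with full overlap. Aged Paneth 1 held only 28 Reg3b reads, so its ratios are the least precise. Its Reg3b level of 7.646 CPM was under every young Paneth library (19.68 CPM or more). Its levels of Reg1 (37.68 CPM) and Reg3a (6.007 CPM) lay within the young ranges. The high Reg1 and Reg3a ratios of aged Paneth 1 thus came with a low Reg3b level. Reg3b was taken as the common base after the data had been seen, and no test was made.

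**Figure D4:**
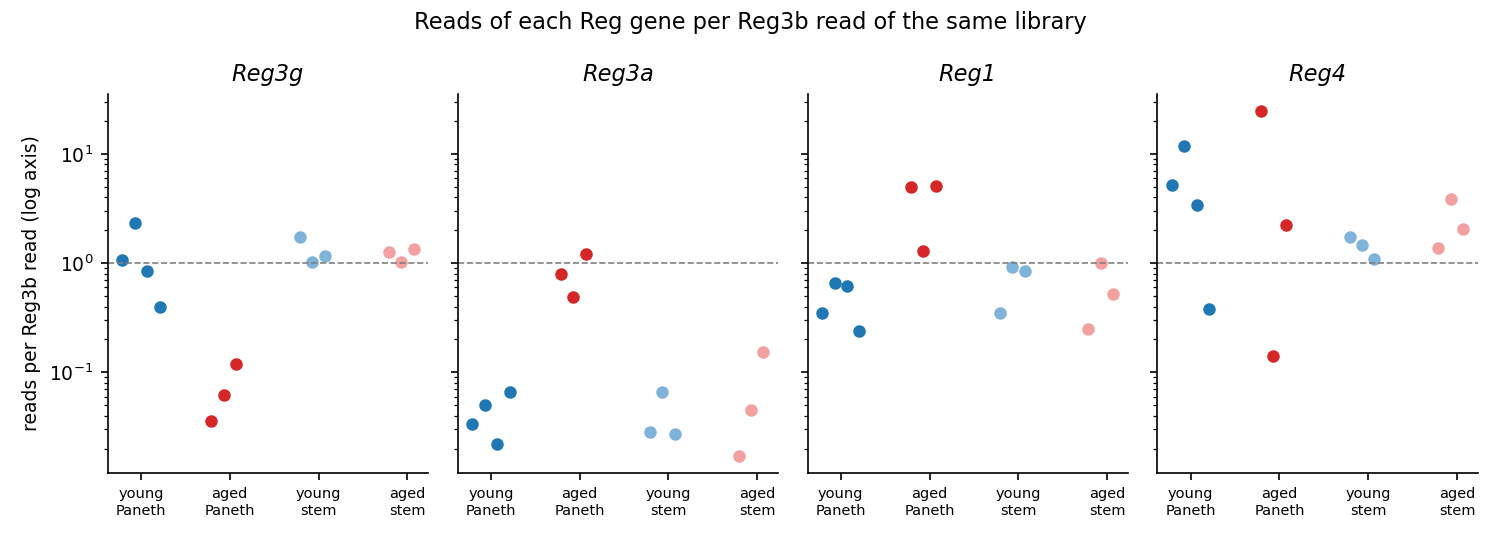
Reads of Reg3g, Reg3a, Reg1 and Reg4 per Reg3b read of the same library (log axis), 1 point per library in the 4 groups; the dashed line marks equal reads. Aged Paneth libraries are lowest for Reg3g (0.0357 to 0.118) and highest for Reg3a (0.494 to 1.21) and Reg1 (1.28 to 5.11). In aged Paneth 1 the CPM of Reg1 and Reg3a lay within their young Paneth ranges, and that of Reg3b was under its young range.

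Stem libraries of the same ages did not have this pattern. Reg3g was at 34.03, 14.35 and 18.25 CPM in young stem 1 to 3 and at 31.81, 16.51 and 18.04 CPM in aged stem 1 to 3. Each group held 1 library above 30 and 2 below 20, and the log2 change was 0.01 ± 0.36 (SE; adjusted p = 0.998, edgeR). Reg3b was at 13.93 to 19.46 CPM in young and 13.31 to 25.42 in aged stem libraries (log2 change 0.16 ± 0.26). Reg1 was at 6.824 to 13.47 and 6.391 to 16.42 CPM (-0.16 ± 0.38), and Reg3a stayed at or under 2.069 CPM, with 6 to 39 reads per library (0.73 ± 0.6). The 2 ages overlapped for each of these genes, whereas 13.1% of all genes tested did not overlap.

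Reg4 had the smallest p in stem libraries. It was at 33.38, 20.48 and 17.49 CPM in young and 34.68, 62.59 and 27.43 CPM in aged libraries. Of the aged libraries 2 were above all young ones, and the log2 change of 0.81 ± 0.34 (SE; unadjusted p = 0.0384) did not pass at an adjusted p of 0.573 (edgeR). No member passed, beside 0% of the 17701 genes tested, although 1477 of them were under 0.05 before adjustment. The counts were 123 with DESeq2 and 1070 with limma-voom, and no member was in either. Without young stem 1, the library whose sex-linked genes differ from the rest, edgeR called 1332 genes and still no member, with Reg4 at 1.16 ± 0.35 (adjusted p = 0.101) and Reg3g at 0.49 ± 0.28 (adjusted p = 0.329). Without aged stem 2, Reg4 was at 0.41 ± 0.3 (adjusted p = 0.997).

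**Figure D5:**
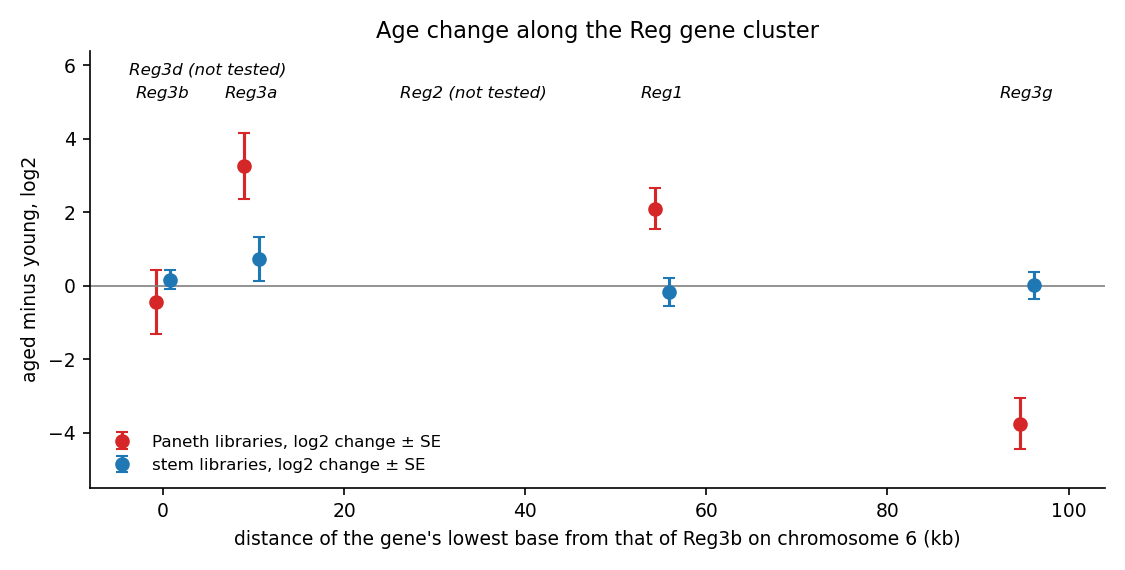
Aged minus young log2 change ± SE of the 4 tested Reg genes of the chromosome 6 cluster, placed by the distance of each gene's lowest base from that of Reg3b (kb), in Paneth (red) and stem (blue) libraries. Paneth values run from 3.26 (Reg3a) to -3.75 (Reg3g), and stem values from -0.16 to 0.73. The points of a gene are set apart sideways to keep both visible; Reg3d and Reg2 were not tested.

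Whether the age change differed between the cell types was tested in a fit of all 13 libraries. The difference, Paneth minus stem, was -3.75 ± 0.78 (SE) for Reg3g (adjusted p = 0.14), 2.52 ± 1.24 for Reg3a, 2.24 ± 0.76 for Reg1, -0.60 ± 1.05 for Reg3b and -2.04 ± 0.89 for Reg4, on the log2 scale. None of the 5 passed with edgeR, beside 0% of 16960 genes, although 1493 of them were under 0.05 before adjustment. With DESeq2 the calls were 100 genes, Reg3g alone of the members (adjusted p = 0.0011), and with limma-voom 1983 genes and 4 members. Without aged Paneth 1, edgeR called 90 genes and Reg3g (-3.29 ± 0.58, adjusted p = 0.0301).

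Between cell types, all 5 members were higher in young Paneth than in young stem libraries, and all passed, beside 40.8% of all genes tested in either direction and 19.6% higher in Paneth. Also passing higher were 14 of 14 Paneth, 18 of 20 enterocyte and 11 of 13 tested enteroendocrine markers, with 0 of each passing lower. Of 12 goblet markers 3 passed higher and 1 lower. Summed enterocyte markers were at 3148 to 34060 CPM in young Paneth and 1602 to 1867 in young stem libraries. The part of these cells in the Reg differences was not tested. Reg4 had the largest log2 difference at 3.38 ± 0.68 (SE; adjusted p = 0.00137, edgeR), from 68.83 to 366.3 CPM in Paneth against 17.49 to 33.38 in stem libraries. Reg3a followed at 2.83 ± 0.93 (adjusted p = 0.0253), Reg3b at 2.51 ± 0.78 (0.0185), Reg3g at 1.65 ± 0.52 (0.0205) and Reg1 at 1.64 ± 0.54 (0.0256). Reg4, Reg3a, Reg3b and Reg3g did not overlap between the groups, as did not 19.1% of all genes in that direction, while Reg1 overlapped in young Paneth 2.

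These calls rested on the scaling and on single libraries. With library totals in place of TMM the median of all genes moved from -0.07 to -1.30 on the log2 scale, and 1 member, Reg4 at 2.19, passed. Relative to that median all 5 were still higher. Leaving out a single library left 1 to 5 members passing: 2 without young Paneth 4, 3 without young stem 1, 2 without young stem 2 and 1 without young stem 3. Reg4 passed in every one of these fits (log2 difference 3.06 to 3.7).

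In aged mice the members split. Reg1 was 3.89 ± 0.61 (SE) higher on the log2 scale in Paneth libraries (adjusted p = 0.000208, edgeR) and Reg3a 5.35 ± 0.94 higher (0.000485). Reg3g was the opposite, at 0.2731 to 9.293 CPM in aged Paneth against 16.51 to 31.81 in aged stem libraries, a log2 difference of -2.11 ± 0.58 (adjusted p = 0.00978). Reg3b (1.92 ± 0.79, adjusted p = 0.0633) and Reg4 (1.34 ± 0.65, 0.112) did not pass. Thus 3 of 5 passed, beside 41.7% of all genes, 20.4% higher and 21.3% lower in Paneth. Of the markers, 19 of 20 enterocyte, 8 of 14 Paneth and 7 of 13 tested enteroendocrine genes passed higher. Passing lower were 0, 1 and 1 of them. Of 12 goblet markers 0 passed higher and 5 lower. The part of all these markers in the Reg differences was not tested. Reg1 and Reg3a were higher in every aged Paneth than in every aged stem library, as were 25.9% of all genes, and Reg3g lower in every one, as were 30.5%. Without the 3 libraries of most enterocyte RNA only aged Paneth 1, with 1 Reg3g read, was left on the aged Paneth side. In that fit Reg1 was 2.1, Reg3a 2.66 and Reg4 2.37 higher, and Reg3g was at -6.13. Reg4 passed with the marker level as a covariate (2.36, adjusted p = 0.00226, edgeR) and without aged Paneth 2 (1.85, 0.0218). Reg3b passed with DESeq2 (1.95, adjusted p = 0.028) and without aged Paneth 1 (2.42, 0.00902), and was at 0.39 without aged Paneth 2.

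Reg3d and Reg2 had few reads. Reg3d, which lies between Reg3b and Reg3a, had 0 reads in all 4 young Paneth libraries and 10, 2 and 17 reads in aged Paneth 1 to 3. Set against a chosen floor of 3 reads over the young group, the 29 pooled aged reads gave an 8.42-fold higher level with TMM scaling. With library totals the fold was 12.4. These folds leave out counting error and the spread between aged libraries, which were at 2.731, 0.3442 and 2.016 CPM. Aged Paneth 2, at 0.3442 CPM, lay under aged stem 3 (0.5305 CPM). All 3 aged libraries were above the young, 1 of them by 2 reads, and 7.88% of the genes tested did not overlap in either direction. Reg3d itself did not pass the filter on low counts. Without that filter its adjusted p was 0.437 (edgeR). Reg2 had 0 reads in every Paneth library and 0 to 4 in stem libraries, so no fold was computed. Summed pancreatic acinar markers (12 genes) were a check because Reg1 is also a gene of the exocrine pancreas. They were at 154.5 to 666.2 CPM in young and 27.71 to 138.4 in aged Paneth libraries. Per library 0 to 8 of the 12 genes were at 0 reads. Clps alone had a mean of 204 CPM in young and 68.0 in aged Paneth libraries. The next highest means were 24.7 (Amy2a5, young) and 2.45 (Cel, aged). The part of these markers in the Reg1 level was not tested.

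The receptors and signalling genes through which Reg3 genes are induced had no member that passed in either age comparison. Of 15 such receptors 11 were tested in Paneth libraries, 5 being higher and 6 lower with a median log2 change of -0.06, where the median of all genes was -0.00. Il22ra1, which binds interleukin 22, was at 121 ± 58.1 CPM (SD, n = 4) in young and 129 ± 40.0 (SD, n = 3) in aged Paneth libraries (0.09 ± 0.39, SE). Il17ra, the receptor of interleukin 17, had the smallest p of them (0.65 ± 0.26, adjusted p = 0.558, edgeR). Of the 16 signalling genes 6 were higher and 10 lower, with a median of -0.12. Stat3, which carries the interleukin 22 signal, was at 111 ± 31.4 and 120 ± 29.9 CPM. Its inhibitor Socs3 (0.91 ± 0.41), the hypoxia factor Hif1a (0.88 ± 0.28) and the MyD88 partner Irak1 (-0.73) did not pass. In stem libraries the medians were 0.20 for the receptors (8 higher, 7 lower) and 0.12 for the signalling genes (13 higher, 3 lower), where that of all genes was -0.02.

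Among 15 other inducible antimicrobial genes of the epithelium 6 were tested in Paneth libraries, with 2 higher, 4 lower and a median of -2.63. None passed. Nos2, which makes nitric oxide, was at 32.9 ± 18.0 CPM (SD, n = 4) in young and 1.7 ± 1.14 (SD, n = 3) in aged Paneth libraries. Its log2 change was -4.36 ± 0.68 (SE), with an adjusted p of 0.146 in edgeR. Duox2, an oxidase that makes hydrogen peroxide at the mucosal surface, was at 68.0 ± 89.5 and 2.24 ± 1.39 CPM (-4.99 ± 1.08, adjusted p = 0.344), and its maturation factor Duoxa2 had a change of -3.22. Sprr1a, which codes for a small proline-rich protein, was at 1.78 ± 1.0 CPM in young and 5.19 ± 2.24 in aged Paneth libraries (1.53 ± 0.58, adjusted p = 0.555). In stem libraries 7 were tested, with 5 higher, 2 lower, none passing and a median of 0.60. Duox2 was 1.34 and Lcn2, an iron-scavenging protein, 1.18 higher there. Extl3, reported as a Reg receptor, had a log2 change of -0.48 ± 0.45 in Paneth and -0.30 in stem libraries.

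Genes of Paneth granules, all of them also among the 14 Paneth markers, were lower in aged Paneth libraries in 9 of 9 cases. Their median log2 change was -2.07, and none passed. Beside them 20 of 20 enterocyte markers were higher (median 1.2) and 10 of 11 goblet markers lower (median -0.67), and none of these passed either. Their part in the granule genes was not tested. The lowest adjusted p were those of Defa22 (-3.50 ± 1.03, adjusted p = 0.528), an alpha-defensin, and Mmp7 (-2.33), which processes alpha-defensins. Reg3g was thus at -3.75 where the median granule gene was at -2.07, and no test of that difference was made. All 14 Paneth markers were lower. Outside the granule list, Mptx2 (-6.97 ± 0.73, adjusted p = 0.039, edgeR) passed and Mptx1 was at -6.58, both further down than Reg3g. All 8 tested transcription factors of the secretory lineage were lower too, with a median of -0.47 and none passing. Gfi1, which Paneth and goblet cells need, had the smallest p (-3.12 ± 0.74, adjusted p = 0.412) and Spdef was at -1.24. In stem libraries 12 of 13 tested enteroendocrine genes were higher, with a median of 1.13, and 12 of 12 goblet genes, with a median of 0.41; none passed, and Reg4 was at 0.81 beside them. Their part in the Reg4 level was not tested.

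Genes whose log2 CPM ran most like each member over the 7 Paneth libraries were ranked among 11293 genes with a mean of at least 5 CPM. These are descriptions of 7 points that share libraries, depth and age groups. Reg4 was closest to Itln1, the Paneth lectin intelectin, at Pearson r = 0.995, then Sorl1 (0.993) and Cad (0.992), and 440 genes had r above 0.9. Reg3a was closest to Fam221b (0.997), Ccdc71l and Anxa13 (both 0.994), with 536 genes above 0.9, and Reg1 to Ugt1a9 (0.988), Vps18 (0.987) and F2rl1 (0.983), with 301. Reg3b was closest to Atp5g1 (0.993), Calm2 and Tmem170 (both 0.983), with 71 genes. Reg3g had the fewest close genes, 26 above 0.9, led by the inflammasome adaptor Pycard (0.968), Pggt1b (0.96) and Pdxdc1 (0.947). No other member was among the 3 closest genes of any member.

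Over the 6 stem libraries the closest gene was Sgms1 for Reg3g (r = 0.998), Ppp4r1l-ps for Reg3b (0.976), Cnep1r1 for Reg1 (0.996), Atp6v1d for Reg3a (0.981) and Scn3a for Reg4 (0.989). Between 17 (Reg3a) and 123 (Reg4) genes had r above 0.9. None of these closest genes was the same as in Paneth libraries.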

How the data were processed

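The authors deposited, for each of the 13 libraries, a table of 36186 rows under the column name FPKM. The deposited values have the form of expected counts (estimated read counts per gene that need not be whole) and not of FPKM, since most low values are whole numbers. The submitters' processing notes name mm10 and DESeq, with no role. No aligner, counting tool, strand setting or annotation is given in the sources used here. Values that share an Entrez ID were added up, which left 35791 genes, and rounded.

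Tests were edgeR 4.0.16 quasi-likelihood tests in R 4.3.3 (TMM scaling, filterByExpr, robust), with a Benjamini-Hochberg adjusted p under 0.05 over all genes as the threshold. Age was fitted within each cell type. Its difference between cell types and Paneth minus stem were fitted on all 13 libraries. The SE of a log2 change was taken from the quasi-likelihood F (its size over the root of F). Levels are CPM with TMM factors from the 13 libraries together, and their ± is the SD of libraries. Transcript lengths are those of the first GENCODE M21 transcript of each gene. Alternatives were library totals or RLE size factors, a stricter filter (10 CPM in 3 libraries) or none, DESeq2 1.42.0, limma-voom 3.58.1 with sample weights, the replicate number as a block, the 3 loci with most reads left out, all 13 libraries in 1 fit, and each library left out in turn. Chosen after seeing the data were 2 more: a covariate for the level of enterocyte minus Paneth markers, and the 3 Paneth libraries highest in it left out together.

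Genes were named by rule: the Reg genes, from each pathway list up to 4 genes of smallest p, from each cell type list its most abundant genes, and the 3 genes most like each member. Il22ra1, Stat3, Lgr5, Mptx1, Mptx2 and the sex-linked genes were named outside it, after their values were seen. Members and lists were chosen with earlier results of these data known. Chi-square per gene between libraries of a group was 13.6 to 89.6, so no library was a copy of another. On simulated counts the Paneth fit (13608 genes) recovered 3% of genes changed by a fold of 2 and 55% of those changed by a fold of 4, and the stem fit (17347 genes) 54% and 97%.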

Additional observations from a re-analysis of the deposited data

Results flagged for a closer look

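Reg3a in young Paneth 4 stood apart from the other young Paneth libraries. It was at 11.9 CPM (39 reads) there, and the others were at 0.984 to 2.37 CPM (2 to 14 reads). The gap took 0.873 of the range of the 4 libraries, above Dixon's limit of 0.829. It was 1 of 10 values examined in this way, and chance marks about 1 in 20. Young Paneth 4 was also the young library with the highest enterocyte minus Paneth marker level, at 2.96 against -2.95 to -1.57 in the others, and the lowest in Reg4. Without it the log2 change of Reg3a with age in Paneth libraries was 4.5 ± 0.84 (SE; adjusted p = 0.137, edgeR), and with it 3.26 ± 0.89.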

How the results depend on the processing

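Members passing moved by over 1.5 times in 3 comparisons. For Paneth age (0 of 5) it was 3 with DESeq2 and limma-voom, 1 with all 13 libraries in 1 fit, and 0 to 1 with a library left out. Fits without the 3 libraries of most enterocyte RNA keep 1 aged Paneth library, and their calls are not counted here. For the difference of age changes (0) it was 1, 4 and 0 to 1 with DESeq2, limma-voom and a library left out. For young Paneth minus stem (5) it was 1 with library totals, 2 without the count filter, 3 with limma-voom or the replicate block, and 1 to 5 with a library left out. For aged Paneth minus stem (3) it was 4 with DESeq2 or the covariate, and 3 to 4 with a library left out. Same-numbered libraries of 2 groups did not deviate together (correlations -0.46 to 0.30), so the numbers were not taken as pairs. The block changed no other count of members; it called 0 genes for Paneth age (2 without), 15 for stem age (0) and 8 for the difference (0). Genes called for Paneth age were 12 with library totals, 11 without the filter, 0 with the stricter one, 5 without the 3 loci, 47 in 1 fit of all libraries, and 0 to 20 with a library left out (20 without aged Paneth 1). For stem age they were 11 without the filter, 5 in 1 fit and 0 to 1332. For the difference they were 15 with library totals, 6 without the filter and 0 to 90. For young Paneth minus stem library totals gave 11122 against 6924, with 1071 against 3323 higher, and in aged mice 1798 higher and 6108 lower against 3452 and 3619. Mean summed CPM of the members with library totals was 273 in young Paneth, 102 in young and 129 in aged stem (TMM 412.3, 74.07 and 92.96), and without the 3 loci 607, 508, 101 and 127 in young and aged Paneth and young and aged stem. Signs that turned, all of values that did not pass, were as follows. In Paneth age Reg3b became 0.19 with library totals and ran from -1.99 to 0.23 with a library left out (positive without young Paneth 4 or aged Paneth 1), Reg4 became 0.43, Extl3 0.41, Spdef 0.19 and Defa21 0.15 with the covariate, and Extl3 0.07 with library totals and 0.13 without the 3 libraries. In stem age, with a library left out, Reg1 ran from -0.71 to 0.09, Reg3a from -0.12 to 1.14, Reg3b from -0.15 to 0.35 and Reg3g from -0.35 to 0.49, and with DESeq2 Reg3g was -0.003. The difference for Reg3b became 0.02 with library totals and ran from -2.14 to 0.05 with a library left out. Aged Paneth minus stem for Reg3b became -0.43 with the covariate and -1.09 without the 3 libraries. The cause was not tested. The stricter filter removed Reg3a. Depth limits Reg3a (2 to 39 reads in 11 libraries) and Reg3g in aged Paneth 1 (1 read).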
